A study of Mus musculus with 12 samples.

Results

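The MYST inhibitor WM-8014 was compared with WM-2474, given in the labels as its inactive control, in mouse embryonic fibroblasts after 96 h of treatment. All 3 WM-8014 cultures and all 3 WM-2474 cultures of that time were taken, which are 6 of the 12 libraries in the series, and all genes were analysed. The cells are connective-tissue cells isolated from wild-type C57BL/6 embryos at E13.5, and all of them were grown in DMEM with 10% serum at 3% oxygen. Each compound was given at 10 µM, and cultures numbered 5, 6 and 7 were sequenced under each compound. Biological replicates is the series design's term for these cultures, and whether a culture came from 1 embryo or from several is not given in the sources used here. The other 6 libraries, the same cultures after 240 h of the same treatments, entered the fit and served to ask which differences changed with time. There was no untreated group, so a value describes WM-8014 relative to WM-2474.

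MYST enzymes are histone acetyltransferases: they transfer acetyl groups to lysines of histone tails, a mark found on transcribed genes. KAT6A and KAT6B work in complexes with the scaffold protein BRPF1, acetylate histone H3 and are known for keeping developmental genes such as the Hox genes expressed and for holding back the Cdkn2a locus in fibroblasts. The gene programs described below have well known regulators: SREBP transcription factors for sterol and fatty acid synthesis, TFEB-type factors for lysosomal genes, and E2F, MuvB and NF-Y complexes for genes of the cell division cycle.

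The WM-2474 libraries held 10147466, 13098453 and 45903190 reads (cultures 5, 6 and 7) and the WM-8014 libraries 14019263, 13973139 and 13937538 reads, so that the deepest held 4.52 times as many as the shallowest. Of 27179 genes, 14136 had enough reads to be tested. The median absolute difference between libraries of 1 group was 0.075 to 0.106 on the log2 scale, against 0.137 to 0.160 between the groups. All libraries are labelled female, yet each expressed 4 genes of the Y chromosome (Uty, Kdm5d, Ddx3y and Eif2s3y), and at 96 h each held 0 to 4 reads of Xist, which is transcribed from an inactive X chromosome. The labelled cell type had its markers: all 15 fibroblast and mesenchyme genes examined were tested, and their summed level was 33400 to 36970 CPM with WM-2474 and 35700 to 39700 CPM with WM-8014. CPM is the read count scaled by the library's TMM total. Markers of other cells differed in level. Cartilage and bone markers summed to 179.8 to 262.6 CPM in WM-2474 and 167.4 to 242.5 CPM in WM-8014 cultures, with Col2a1 the highest (mean 116.5 CPM). Neuron and glia markers summed to 93.9 to 113.4 and 110.5 to 129.2 CPM, and epithelium and mesothelium markers to 41.6 to 64.8 and 41.5 to 72.3 CPM. Of 15 leukocyte and macrophage genes 9 were under 1 CPM in all 6 libraries, with a summed level of 11.4 to 13.2 CPM in WM-2474 and 17.8 to 18.9 CPM in WM-8014 cultures, and the defining genes Ptprc and Adgre1 had at most 7 reads in any of them. Of those 15 genes 5 had enough reads to be tested, and of the 5, 2 rose and none fell (40%, beside 22.8% of all genes that passed). All 5 had a log2 fold change above 0, from 0.43 to 1.85. Their part in the results was not tested. Endothelial markers summed to 12.2 to 14.2 and 10.6 to 11.5 CPM with Cldn5 at 0, and skeletal muscle markers to 139.9 to 152.8 and 156.2 to 185.5 CPM with Myf6 and Pax7 at 0. Adipocyte markers summed to 27.9 to 30.1 and 30.3 to 36.3 CPM, with Retn and Cfd at 0.

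A small set of libraries stood apart before any comparison. The WM-2474 cultures 6 and 7 lay together at least 1 log2 unit below all 10 other libraries in 4 genes (Misp3, Stag3, Ntn3 and Lrrn2) and above them in 0. The WM-8014 cultures 5 and 6 did so in 2 genes of low level, Tnfsf18 and Mcpt8, also below, and the other 4 pairs of libraries within a 96 h group in 0. Tnfsf18 was at 1.11, 1.23 and 1.82 CPM with WM-2474 and at 0.204, 0.273 and 1.02 CPM with WM-8014, and Mcpt8 at 1.02, 1.88 and 1.37 against 0.204, 0.205 and 0.609 CPM, with log2 fold changes of -1.61 and -2.05. Without WM-8014 cultures 5 and 6 these were -0.60 and -1.22 and did not pass (adjusted p = 0.430 and 0.112, the range over alternatives reaching 0.430 for Tnfsf18 and 0.147 for Mcpt8). The WM-8014 cultures 5 and 6 also differed from the rest in short noncoding RNAs. Rn7sk stood at 3.46 CPM in culture 5 and 1.57 in culture 6, compared with 0.406 to 1.11 CPM over the remaining 4 libraries at 96 h. For Rmrp the values were 2.99 and 1.5, compared with 0.217 to 0.676 CPM. An abundant identifier without a RefSeq symbol, Entrez100861531, was at 6026 CPM in culture 5 and 3412 CPM in culture 6. In the remaining libraries at 96 h it was at 1387 to 1603 CPM. The 2 genes, the noncoding RNAs and the identifier were chosen after their values were seen, and their part in the results was not tested.

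At an adjusted p under 0.05, 1544 genes were higher with WM-8014 (10.9% of those tested) and 1674 were lower (11.8%), 22.8% in all. Most differences were small. The median absolute size among the genes that passed was 0.27 on the log2 scale, or 1.21-fold, and 210 genes rose and 323 fell by at least 1.5-fold. The 3 libraries of each group did not overlap for 3059 of the 3218 genes that passed, against 38.1% of all genes tested, and 3187 of the 3218 moved the same way in 3 of 3 same-numbered cultures. In bulk RNA, fewer cells of a type and less RNA per cell cannot be told apart.

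Cpt1a (chr19:3322326-3385735, build GRCm38.p6), which encodes the enzyme that admits long-chain fatty acids to mitochondria, had the smallest p of all genes tested. Its level was 56.2, 54.6 and 56.9 CPM in WM-2474 cultures 5, 6 and 7 and 98.4, 92.6 and 94.2 CPM in WM-8014 cultures 5, 6 and 7. The groups were far apart and each was tight, a 1.70-fold rise (log2 fold change 0.76, SE 0.05, 95% interval 0.66 to 0.86, adjusted p = 3.42e-09). Nuak1 (chr10:84370900-84440668), an AMPK-related kinase, was at 106, 113 and 112 CPM with WM-2474 and at 68.4, 69.6 and 69.3 CPM with WM-8014. All 3 WM-8014 cultures lay below every WM-2474 culture, which is -0.68 in log2 fold change (adjusted p = 1.73e-08, SE 0.05). H1f0 (chr15:79028212-79030504), the replacement linker histone H1.0, was at 213, 208 and 207 CPM with WM-2474 and at 138, 134 and 139 CPM with WM-8014. Again there was no overlap, and the log2 fold change was -0.61 (95% interval -0.71 to -0.51, adjusted p = 2.93e-08).

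Pon3, a lactonase of lipid metabolism, rose from 18.4, 17.6 and 17.5 to 32.5, 30.4 and 31.7 CPM (log2 fold change 0.83, adjusted p = 2.29e-08). Sncg, which encodes gamma-synuclein, rose from 14.8, 13 and 16 to 39, 34.3 and 34.9 CPM, 2.42-fold. Lmo7, a protein of adherens junctions with a LIM domain, fell from 56.6, 55.0 and 58.7 to 32.6, 36.4 and 34.2 CPM (log2 fold change -0.73, adjusted p = 3.50e-08). In none of these 3 genes did a WM-8014 culture reach the range of the WM-2474 cultures. For Sncg the absence of overlap was also a condition of the rule for the largest rises. Naaa, a lysosomal amidase that breaks down N-acylethanolamines, rose 1.81-fold, and Mmp19, a matrix metalloproteinase, rose 1.53-fold.

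**Figure D1:**
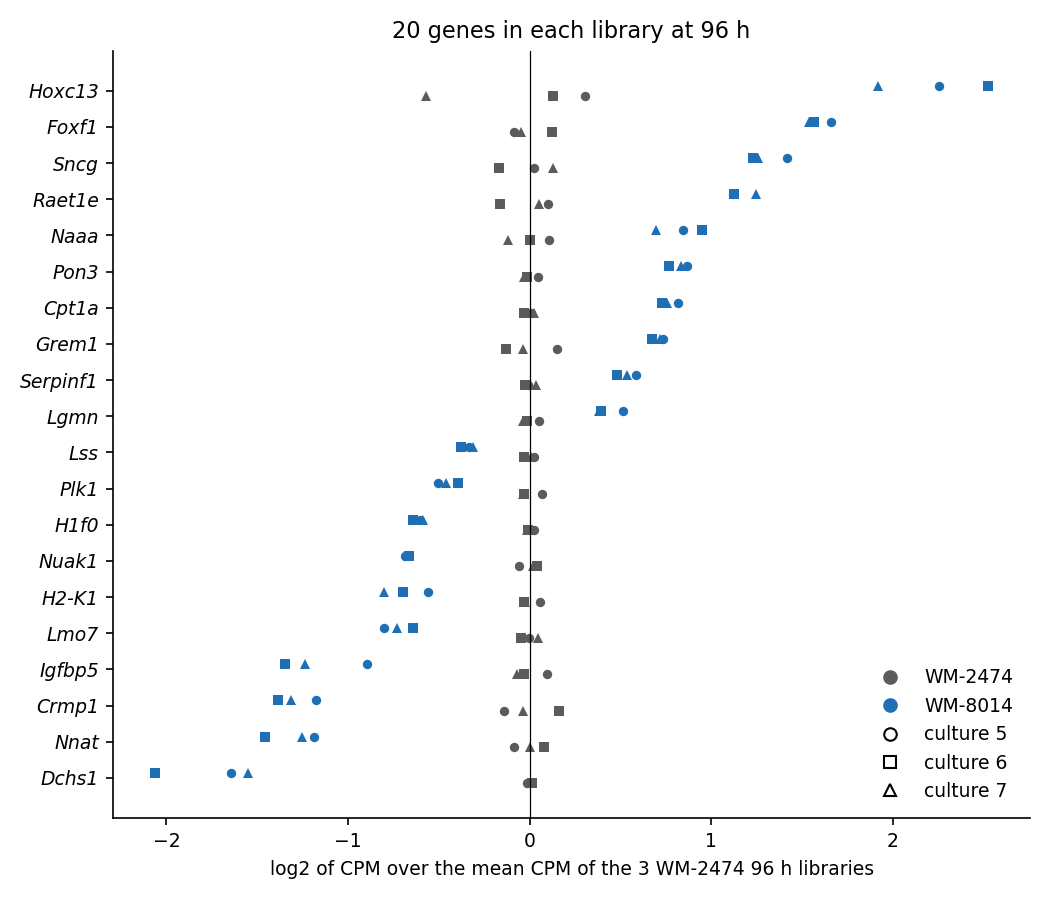
Level of 20 genes in each of the 6 libraries at 96 h, as log2 CPM relative to the mean of the 3 WM-2474 cultures (horizontal axis), one gene to a line, with compound by colour and culture number by marker. The WM-2474 cultures lie around 0 and the 3 WM-8014 cultures of a gene lie together on 1 side, as for Cpt1a (log2 fold change 0.76) and Nuak1 (-0.68).

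Hoxc13 and Foxf1 were among the 15 largest rises in genes with a mean of at least 1 log2 CPM and no overlap between groups. Hoxc13, a homeobox factor of posterior and hair follicle identity, was at 1.39, 1.23 and 0.758 CPM with WM-2474 and at 5.37, 6.48 and 4.26 CPM under WM-8014 (log2 fold change 2.47, 95% interval 2.02 to 2.92). Its whole range was low, and the absence of overlap was a condition of the rule that named it. Foxf1, a forkhead factor of visceral mesenchyme, rose 3.02-fold from 2.13, 2.46 and 2.19 to 7.13, 6.68 and 6.56 CPM. Plpp7, a member of the lipid phosphatase family, rose by 1.44 on the log2 scale, and Raet1e, a ligand of the natural killer cell receptor NKG2D, rose by 1.15.

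The 15 largest falls by the same rule included genes of adhesion, the cytoskeleton and secretion. Dchs1, a giant cadherin of planar polarity, fell 3.33-fold, from 26.5, 27.1 and 26.8 to 8.56, 6.41 and 9.13 CPM. Crmp1, a cytoskeletal protein that mediates semaphorin signals, fell from 28.6, 35.3 and 30.8 to 14.0, 12.1 and 12.7 CPM (log2 fold change -1.29, adjusted p = 1.03e-06). Rab3c, a GTPase of secretory vesicles, was at 11.9, 14.9 and 13.4 CPM against 3.26, 5.66 and 5.55 CPM (log2 fold change -1.48). The absence of overlap between groups was likewise a condition of the rule for these 3 genes. Nnat, an imprinted membrane protein (-1.30), Ctnna2, the neural alpha-catenin (-1.29), Hhip, a Hedgehog antagonist (-1.56), and Piezo2, a mechanically gated channel (-1.18), fell as well, in log2 fold change.

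Among abundant genes, compared per transcript length in RPKM (CPM per kilobase), the highest of those that passed the size threshold of the rule for named genes was S100a4, a calcium-binding protein of motile fibroblasts, at 1267 RPKM with WM-2474 and 1791 with WM-8014. Its CPM were 691, 580 and 626 with WM-2474 and 898, 858 and 924 with WM-8014, with no overlap. Ly6a, the surface antigen Sca-1, rose from 454 to 704 RPKM and Timp2, an inhibitor of metalloproteinases, from 405 to 532 RPKM. Aebp1, a collagen-binding matrix protein, rose by 0.56 on the log2 scale, Serpinf1, the secreted anti-angiogenic factor PEDF, by 0.53, and Cd248, a membrane glycoprotein of stromal cells, by 0.41. The highest of those that fell was Crabp1, which binds retinoic acid, at 887 against 625 RPKM. It was at 694, 626 and 651 CPM with WM-2474 and at 502, 434 and 454 CPM under WM-8014 (log2 fold change -0.50, adjusted p = 1.15e-05).

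Genes of cholesterol synthesis were lower almost throughout. Of 25 genes of synthesis, uptake and control, 24 fell and none rose, against 11.8% of all genes that fell, and their median log2 fold change was -0.25 (0.00 over all genes). All 20 enzymes fell. Of 5 genes of control or uptake 4 fell and 1 did not pass. Without WM-2474 cultures 6 and 7, 13 of the 25 fell and the median was -0.25.

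Promoters of 17 of the 25 genes were matched in the RefSeq table of GRCm38.p6, and stretches upstream of the transcription start of 4 of them are shown because 1 short motif recurs in them. The motif is CCAAT, the letters that NF-Y reads, which is printed in capitals where it lies on the gene's strand and as its reverse complement ATTGG where it lies on the other. Stretches are 100 bases, 5′ to 3′ on the gene's strand, and Mvd and Idi1 were chosen for their sequence after values were seen. They lie at chr10:76531495-76531594 (plus strand, Lss, bases 110 to 11 before the start), chr8:64733629-64733728 (minus, Msmo1, bases 150 to 51), chr8:122443423-122443522 (minus, Mvd, bases 100 to 1) and chr13:8885506-8885605 (plus, Idi1, bases 100 to 1).
Lss: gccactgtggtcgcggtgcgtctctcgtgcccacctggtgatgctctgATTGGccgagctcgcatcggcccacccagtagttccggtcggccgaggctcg
Msmo1: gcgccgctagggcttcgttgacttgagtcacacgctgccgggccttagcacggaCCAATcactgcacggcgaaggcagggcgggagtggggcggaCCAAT
Mvd: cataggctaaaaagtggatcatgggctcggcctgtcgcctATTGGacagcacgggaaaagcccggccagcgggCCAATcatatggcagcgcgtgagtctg
Idi1: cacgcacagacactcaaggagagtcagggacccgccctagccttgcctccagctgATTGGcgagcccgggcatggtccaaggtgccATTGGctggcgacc

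CCAAT stood on 1 strand or the other within 250 bases before the start in 16 of these 17 promoters (94.1%), against 4359 of 10681 tested genes with a promoter (40.8%). It stood in 46.5% of promoters of the genes that fell and in 38.6% of those that rose. The SREBP element in the strict form TCACCCCAC was found in 1 of the 17 (5.88%), against 0.627% of promoters of tested genes. A match is a description of these letters and not of a factor's binding.

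The 4 genes whose promoters are shown encode consecutive or nearby steps. Mvd, which makes isopentenyl diphosphate, was at 140, 137 and 145 CPM with WM-2474 and at 114, 107 and 118 CPM under WM-8014 (log2 fold change -0.32). Idi1, which isomerises that product, was at 98.6, 102 and 104 against 78.9, 72.8 and 83.2 CPM (-0.38). Lss, which closes the sterol rings, was at 269, 258 and 265 against 210, 203 and 213 CPM (-0.34). Msmo1, which removes methyl groups from the ring, was at 373, 356 and 372 against 290, 270 and 299 CPM (-0.36), and in all 4 genes every WM-8014 culture was below every WM-2474 culture. Pmvk, phosphomevalonate kinase, had the lowest log2 fold change of the 25, -0.52.

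Fatty acid synthesis was lower in most but not all genes: 10 of 18 fell, 1 rose and 7 did not pass (median log2 fold change -0.20). The share that passed was 61.1%, beside 22.8% of all genes. Fasn, fatty acid synthase, was at 843, 856 and 900 CPM with WM-2474 and at 712, 726 and 692 CPM with WM-8014. The desaturase Scd1 was at 1016, 1004 and 1030 against 816, 768 and 875 CPM, and its relative Scd2 at 3192, 3388 and 3317 against 2752, 2749 and 2853 CPM. None of the 3 overlapped between groups, and the log2 fold changes were -0.29, -0.31 and -0.24. A pair of relatives of the fatty acid desaturase family moved in opposite directions: Fads2, the delta-6 desaturase, fell by 0.42 on the log2 scale, whereas Fads3 rose from 163, 177 and 175 to 207, 215 and 203 CPM (0.27). In the fit without WM-2474 cultures 6 and 7, 7 genes of this list fell and 1 rose.

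Genes of fatty acid use were higher in part. Of 23 PPAR targets and genes of lipid use 8 rose, 1 fell and 14 did not pass, with a median log2 fold change of 0.17. The share that passed was 39.1%, beside 22.8% of all genes. Beside Cpt1a, the secreted lipoprotein lipase inhibitor Angptl4 rose from 2.23, 2.17 and 1.64 to 5.64, 5.52 and 5.00 CPM (log2 fold change 1.53, 95% interval 1.19 to 1.86). Its levels were low. The groups did not overlap, but that was also a condition of the rule for the largest rises, so it adds no separate support. Of the 23 genes 2 rose without WM-2474 cultures 6 and 7, and none fell.

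Lysosomal genes were higher in most members. Of 46 tested, 33 rose, against 10.9% of all genes, and 13 did not pass (median log2 fold change 0.19). By role, 10 of 11 proteases, 16 of 20 other hydrolases and 7 of 15 membrane proteins or cofactors rose. Without WM-2474 cultures 6 and 7, 12 rose and none fell, with a median of 0.16. CLEAR elements, the sites that TFEB-type factors read, have the palindromic core TCACGTGA, and 4 of 38 lysosomal promoters held it (10.5%) against 1.75% of promoters of all tested genes and 0.907% of those of all genes with a promoter. Promoter stretches of 2 of the 4 genes are shown with the core in capitals, from chrX:134601156-134601255 (Gla, bases 250 to 151 before the start) and chr7:142387873-142387972 (Ctsd, bases 145 to 46), both on the minus strand, and these 2 genes were chosen for their sequence after values were seen.
Gla: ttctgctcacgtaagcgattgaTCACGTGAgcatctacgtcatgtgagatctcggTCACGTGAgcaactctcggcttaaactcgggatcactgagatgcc
Ctsd: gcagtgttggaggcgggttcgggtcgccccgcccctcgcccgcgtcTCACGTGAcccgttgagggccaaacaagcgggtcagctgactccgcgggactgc

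Gla, alpha-galactosidase A, was at 37.9, 34.7 and 34.6 CPM with WM-2474 and at 43.6, 45.1 and 45.9 CPM with WM-8014, and Ctsd, cathepsin D, at 912, 917 and 870 against 1051, 997 and 989 CPM. Neither overlapped between groups (log2 fold changes 0.34 and 0.17), and both calls were lost without WM-2474 cultures 6 and 7 (adjusted p = 0.101 and 0.112), with log2 fold changes of 0.24 and 0.15. Over all alternatives the adjusted p ran from 1.76e-05 to 0.101 for Gla and from 0.000179 to 0.131 for Ctsd. Ctsk, the collagen-degrading cathepsin K, rose most among the proteases named, from 95.8, 87.5 and 90.8 to 144, 130 and 143 CPM (0.61). Lgmn, legumain, rose by 0.44. Psap, the precursor of the sphingolipid activator proteins, was at 1002, 985 and 947 against 1254, 1194 and 1135 CPM (0.29). Ctsa, a carboxypeptidase that protects other hydrolases, rose by 0.24.

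**Figure D2:**
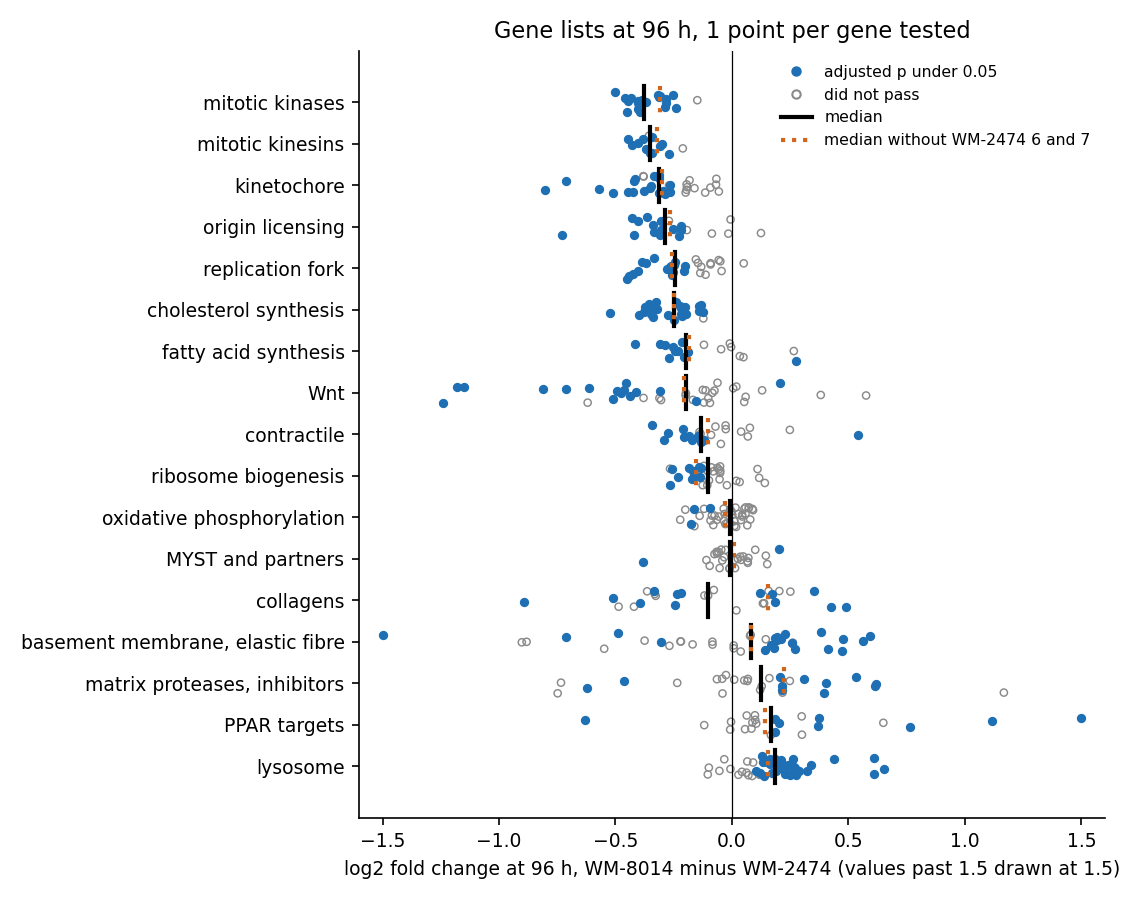
Log2 fold change at 96 h, WM-8014 minus WM-2474 (horizontal axis), of every tested gene of 17 lists, one list to a line, with the list's median as a black bar and the median without WM-2474 cultures 6 and 7 as a dotted orange bar. The cholesterol list lies below 0 (median -0.25), the lysosome list above 0 (0.19), and mitotic kinases have the lowest median of the 17 (-0.38).

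In each cell division list of this paragraph more genes fell than rose, where 11.8% of all genes fell and 10.9% rose. Nucleotide synthesis genes are counted further below. Of 25 G1 cyclins, kinases, pocket proteins and E2F factors 13 fell and 4 rose, of 20 genes of origin licensing 14 fell and 0 rose, and of 28 replication fork genes 16 fell and 0 rose. Of 20 mitotic kinases and passenger complex genes 19 fell and 0 rose (median log2 fold change -0.38), of 33 kinetochore and centromere genes 19 fell and 0 rose (-0.31), and of 13 mitotic kinesins 11 fell and 0 rose (-0.35). Of 8 condensin subunits 6 fell and 0 rose, and of 11 cohesin genes 4 fell and 1 rose. Without WM-2474 cultures 6 and 7, 8 of the 20 mitotic kinase genes, 4 of the 33 kinetochore genes and 2 of the 20 licensing genes fell, with medians of -0.31, -0.30 and -0.27. In that fit 3 of the 25 G1 genes fell and 1 rose, 6 of the 28 fork genes, 4 of the 13 kinesins and 4 of the 8 condensin subunits fell, and of the 11 cohesin genes 1 fell and 1 rose. With 1 library or culture number left out, 6 to 13 of the G1 genes, 8 to 15 of the fork genes and 12 to 18 of the mitotic kinase genes fell.

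The promoters of 3 mitotic genes are shown because the CCAAT letters recur close to their starts, often more than once. They are the 100 bases just before the start, 5′ to 3′ on the gene's strand, at chr7:122159335-122159434 (plus, Plk1), chr2:172370571-172370670 (minus, Aurka) and chr4:124936918-124937017 (minus, Cdca8), with CCAAT or its reverse complement ATTGG in capitals.
Plk1: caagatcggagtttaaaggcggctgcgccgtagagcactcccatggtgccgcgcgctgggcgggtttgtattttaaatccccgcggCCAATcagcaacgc
Aurka: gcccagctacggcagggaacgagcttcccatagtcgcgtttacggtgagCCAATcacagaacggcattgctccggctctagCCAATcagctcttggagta
Cdca8: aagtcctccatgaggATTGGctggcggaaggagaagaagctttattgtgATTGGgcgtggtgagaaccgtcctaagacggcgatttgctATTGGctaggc

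Of the 15 mitotic kinase and passenger complex genes with a promoter in the table, 12 (80%) held CCAAT, against 40.8% of tested genes, and over 10 lists of the cell cycle it was 91 of 165 (55.2%). Over the same 165 promoters an E2F motif (TTTGGCGC, TTTCCCGC or TTCGCGC, either strand) stood in 20.6% against 5.63% of tested genes, and the CHR letters TTTGAA in 20% against 12.8%. These shares describe letters only.

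Plk1, a kinase that drives mitotic entry and spindle assembly, was at 77.5, 72.5 and 72.3 CPM with WM-2474 and at 52.2, 56.3 and 53.8 CPM under WM-8014 (log2 fold change -0.45). Aurka, the spindle pole kinase, was at 39.8, 39.2 and 42.1 against 28.5, 31.7 and 29.3 CPM (-0.45), and Cdca8, borealin of the passenger complex, at 39.1, 39.6 and 39.3 against 26.4, 29.3 and 27.4 CPM (-0.50). Groups did not overlap in any of the 3. The other passenger genes Incenp (-0.39) and Aurkb (-0.40) fell by a like amount. At the kinetochore, Mad2l1 of the spindle checkpoint fell by 0.51, Spc24 of the NDC80 complex by 0.57, and Cenpf by 0.34, all on the log2 scale. The condensin genes Smc4 (176, 173 and 172 against 117, 131 and 138 CPM) and Ncapd2 fell by 0.43 and 0.38.

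Among regulators, earlier steps and other genes of the cycle some fell and some rose, where 11.8% of all genes fell and 10.9% rose. Foxm1, the factor that drives G2 and M phase genes, was at 92.9, 88.3 and 88.4 CPM with WM-2474 and at 65.8, 67.4 and 65.2 CPM under WM-8014 (log2 fold change -0.44). Dbf4, the activator of the CDC7 kinase, fell by 0.43, Cdc25a, the CDK phosphatase, by 0.41, and the Fanconi helicase gene Fancm by 0.49. Of 23 homologous recombination and Fanconi genes 10 fell and 0 rose, and 5 fell without WM-2474 cultures 6 and 7. Ccnd2, cyclin D2, went the other way, at 739, 839 and 819 against 924, 1011 and 983 CPM (0.28), with no overlap. Of 7 cyclin-dependent kinase inhibitors 3 rose and 2 fell, and 2 rose and 0 fell in the fit without those cultures. Cdkn2a, which encodes p16INK4a and ARF, was at 82.2, 97.1 and 84.0 CPM with WM-2474 and at 146, 144 and 132 CPM with WM-8014 (0.68). Gene-level counts do not separate its 2 products. Its repressor Bmi1, a Polycomb subunit, rose as well, from 55.2, 58.1 and 57.4 to 68.9, 73.9 and 74.6 CPM (0.35), and Uhrf1, which guides maintenance DNA methylation, fell by 0.53. Mki67, the marker of cycling cells, fell by 0.40.

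Transcripts of the MYST enzymes themselves differed little between the compounds. Kat5 (28.8, 30.0 and 28.2 CPM with WM-2474, 30.7, 30.5 and 29.6 with WM-8014), Kat6a (90.0, 95.9 and 93.8 against 89.8, 90.4 and 87.3), Kat7 (87.7, 84.1 and 86.6 against 82.1, 86.2 and 85.1) and Kat8 (10.9, 14.4 and 15 against 13.9, 14.8 and 12.7) overlapped between groups and did not pass. The 95% intervals of their log2 fold changes were -0.06 to 0.20, -0.15 to 0.02, -0.11 to 0.06 and -0.21 to 0.19. Kat6b rose slightly, from 48.6, 48.7 and 50.9 to 59.9, 55.4 and 55.8 CPM (log2 fold change 0.20, adjusted p = 0.00743), and that call was lost without WM-8014 culture 5 (adjusted p = 0.0542), without culture 5 of all groups (0.130) and without WM-2474 cultures 6 and 7 (0.113), within a range of 0.00332 to 0.202 over all alternatives. Of 22 partner proteins of MYST complexes 1 passed: the scaffold gene Brpf1 fell from 45.5, 46.5 and 44.1 to 36.2, 33.7 and 34.2 CPM, with no overlap (-0.38, 95% interval -0.49 to -0.27, adjusted p = 4.60e-05). Of 26 other acetyltransferase and deacetylase genes 0 rose and 1 fell, under the 22.8% of all genes that passed. Of 28 Polycomb and DNA methylation genes 3 rose and 7 fell (35.7%). With WM-2474 cultures 6 and 7 left out, 0 of those 26 passed, and 1 of the 28 rose and 1 fell.

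Hox genes were counted by paralogue group, and the difference between the groups was not tested. Of 30 genes of groups 1 to 12, 8 fell and 1 rose, 30% in all, and the median log2 fold change was -0.20. Of 3 genes of group 13, 2 rose (Hoxc13 among them) and 0 fell, with a median of 2.47. Without WM-2474 cultures 6 and 7, 1 of the 30 fell with a median of -0.06, while the 2 genes of group 13 still passed, Hoxc13 with a log2 fold change of 1.94. Of 70 other developmental transcription factors 17 fell and 5 rose, 31.4% in all beside the 22.8% of all genes that passed. For these factors 28 fell with culture number as a block, 7 to 17 fell with 1 library or culture number left out, and 5 fell and 2 rose without WM-2474 cultures 6 and 7. Of 28 imprinted genes 8 fell and 2 rose, 35.7% in all. Their median log2 fold change was -0.10, and -0.03 without those cultures. With 1 library or culture number left out 5 to 8 fell and 0 to 2 rose. Besides Nnat, Slc38a4, an amino acid transporter, was at 133, 134 and 132 CPM with WM-2474 and at 98.0, 91.6 and 98.1 CPM under WM-8014 (log2 fold change -0.47). Peg3 and Zim1, zinc finger genes of the same imprinted cluster, fell by 0.45 and 0.64.

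Matrix genes moved in both directions, by family. Of 22 elastic fibre genes 12 rose and 1 fell (59.1%), and of 15 basement membrane genes 4 rose and 3 fell (46.7%). Of 27 collagens 6 rose and 7 fell (48.1%), beside the 22.8% of all genes that passed. The collagen median turned from -0.10 to 0.15 without WM-2474 cultures 6 and 7, where 5 rose and 1 fell. In that fit 8 elastic fibre genes rose and 1 fell, and 2 basement membrane genes rose and 1 fell. Fbn1, which encodes the fibrillin of microfibrils, was at 1440, 1501 and 1491 CPM with WM-2474 and at 1885, 1965 and 1926 CPM under WM-8014 (log2 fold change 0.38), and Fbln2, fibulin-2, at 3212, 3418 and 3244 against 4058, 4092 and 3763 CPM (0.27). Its relative Fbln1 fell, from 84.1, 79.9 and 83.3 to 58.5, 57.3 and 60.6 CPM (-0.49). No culture of these 3 genes crossed to the range of the other compound. Col16a1, a collagen that sits on fibril surfaces, rose by 0.49. Of 28 matrix proteases and inhibitors 9 rose and 2 fell (39.3%). Their median log2 fold change was 0.12, and 0.22 without WM-2474 cultures 6 and 7. Serping1, the C1 inhibitor, rose from 36.8, 44.7 and 40.1 to 56.6, 61.4 and 68.7 CPM (0.62), and Plat, tissue plasminogen activator, rose by 0.31.

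Contractile and stress fibre genes fell in 11 of 23 and rose in 1, with a median log2 fold change of -0.13. Of the 23, 7 to 13 fell with 1 library or culture number left out, and 4 fell and 0 rose without WM-2474 cultures 6 and 7. Acta2, smooth muscle actin, was at 2625, 2658 and 2741 CPM with WM-2474 and at 2180, 2276 and 2176 CPM with WM-8014 (-0.28). Tpm1, tropomyosin, was at 1496, 1516 and 1498 against 1210, 1247 and 1233 CPM (-0.29), and Cnn2, calponin-2, at 700, 719 and 710 against 596, 631 and 613 CPM (-0.21). Differences were small but every WM-8014 culture was below every WM-2474 culture. Of 29 Fat, Dachsous and YAP genes 8 fell and 1 rose, 31% in all beside the 22.8% of all genes that passed. Among those that fell was Tead1, the DNA-binding partner of YAP, at 595, 584 and 605 against 503, 503 and 514 CPM (-0.23). Of 19 immediate early factors 5 fell and 2 rose, 36.8% in all. Egr1, a zinc finger factor induced by serum and growth factors, was at 171, 182 and 174 against 123, 112 and 126 CPM (-0.55). With WM-2474 cultures 6 and 7 left out, 2 of the 29 Fat, Dachsous and YAP genes fell and 0 rose, and 3 of the 19 immediate early factors fell and 1 rose.

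Wnt genes were lower in part. Of 38 Wnt genes 15 fell and 1 rose, 42.1% in all (median log2 fold change -0.20). By role, 4 of 10 ligands, 6 of 10 secreted modulators and 3 of 5 targets fell with 0 risen, and of 13 receptors 2 fell and 1 rose. Wnt5a, a ligand of the noncanonical branch, was at 151, 148 and 158 CPM with WM-2474 and at 128, 115 and 127 CPM with WM-8014 (-0.31). The receptor gene Fzd6 was at 30.8, 28.8 and 28.5 against 22.5, 21.4 and 20.8 CPM (-0.44), and Frzb, a secreted Wnt antagonist, at 21.5, 16.5 and 18.8 against 11.3, 9.62 and 11.2 CPM (-0.81). None of the 3 overlapped between groups. With WM-2474 cultures 6 and 7 left out, 5 of the 38 fell and 2 rose. Of the 5 targets 0 to 1 fell in the fits without 1 library or culture number, and 0 without cultures 6 and 7. Of 47 TGF-beta and BMP genes 7 rose and 7 fell, 29.8% beside the 22.8% of all genes. With culture number as a block 11 of them fell, with 1 library or culture number left out 3 to 7 rose and 2 to 6 fell, and without WM-2474 cultures 6 and 7, 4 rose and 2 fell. Grem1, a BMP antagonist, rose from 267, 220 and 234 to 400, 383 and 395 CPM (0.71). Of 37 PDGF, FGF and IGF genes 9 fell and 5 rose (37.8%), with 13 lower and 9 higher under the block. With 1 library or culture number left out 4 to 9 of them fell and 3 to 7 rose. Dusp6, a phosphatase that ERK signalling induces, fell by 0.62, and Igfbp5, which binds insulin-like growth factors, fell from 1411, 1292 and 1258 to 709, 519 and 560 CPM (-1.15). Of 15 Notch genes 6 fell (40% beside 22.8% of all genes) and 0 rose, and of 11 Hedgehog genes 3 fell (27.3%) and 0 rose. With 1 library or culture number left out 1 to 7 Notch genes and 1 to 2 Hedgehog genes fell, and without WM-2474 cultures 6 and 7 there was 1 in each list. Of 58 axon guidance genes 13 fell and 9 rose (37.9%). The ligand Ntn1, netrin-1, rose from 16.1, 15.2 and 16.6 to 32.1, 28.8 and 33.2 CPM (0.96), while the ligand Sema3e and the receptor Plxnb1 fell by 0.84 and 0.79. Without those 2 cultures 7 of the 58 fell and 4 rose.

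Immune genes were mixed. The share that passed was 58.3% in antigen presentation, beside 22.8% of all genes. Of 12 antigen presentation genes 4 rose and 3 fell, and 2 rose and 2 fell without WM-2474 cultures 6 and 7. The class I heavy chains H2-K1 (40.7, 38.3 and 38.4 CPM with WM-2474, 26.6, 24.1 and 22.5 with WM-8014) and H2-D1 (46.6, 47.0 and 45.7 against 35.5, 35.9 and 32.5) fell by 0.68 and 0.42 on the log2 scale, with no overlap. Reads of near-identical class I genes may be split or dropped in counting, so the 2 values are uncertain. Of 25 interferon-stimulated genes 5 rose and 0 fell (20%, beside 10.9% of all genes that rose), with 23 of the 25 above 0 and a median log2 fold change of 0.45. The number that rose was 2 to 12 with 1 library or culture number left out and 2 without WM-2474 cultures 6 and 7. Of 9 cytokine and chemokine receptors 5 rose and 0 fell (55.6%, beside 22.8% of all genes that passed). Of 23 ligands of that list 2 rose and 2 fell (17.4%). The median log2 fold change of the receptors was 0.40, and 0.29 without WM-2474 cultures 6 and 7. In the endoplasmic reticulum list, 9 of 22 fell and 3 rose, and in the fit without them 2 fell and 1 rose. With all libraries 54.5% of the endoplasmic reticulum list passed. Manf, a stress-induced secreted protein of that compartment, was at 139, 138 and 141 against 112, 114 and 113 CPM (-0.30). Pdia6, a disulfide isomerase, fell by 0.28, whereas the oxidase gene Ero1a rose from 121, 129 and 119 to 148, 155 and 156 CPM (0.31).

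Whether the results rest on WM-2474 cultures 6 and 7 was examined by leaving libraries out. Without both, 432 genes were higher and 437 lower (5.93% of 14647 tested), of which 50 had not passed with all libraries. Of the 3218 genes 819 still passed, 3213 had the same sign, and 39 moved by over 1.5-fold. The lone WM-2474 culture was then assumed to vary like the other groups. Leaving out cultures 5 and 7 instead gave 436 higher and 426 lower (5.9% of the genes tested), with 829 of the 3218 still passing and 3218 of the same sign. Leaving out cultures 5 and 6, which keeps the deepest library, gave 799 and 850 (11.1%), with 1581 still passing. The count was lower whichever pair was left out, and the loss without cultures 6 and 7 was close to that without cultures 5 and 7. Sizes moved less evenly: 39 genes moved by over 1.5-fold without cultures 6 and 7, 17 without 5 and 7 and 2 without 5 and 6. The median absolute change in log2 fold change was 0.050, 0.044 and 0.029. For pairs of WM-8014 cultures 28 (6 and 7), 28 (5 and 6) and 38 genes (5 and 7) moved so far. The cause was not tested. With pairs of WM-8014 cultures left out, 3 further fits chosen after seeing the data, 827, 656 and 571 genes were higher and 810, 665 and 529 lower. With 1 library or 1 culture number left out at a time, 526 genes were called higher and 551 lower in every such fit.

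**Figure D3:**
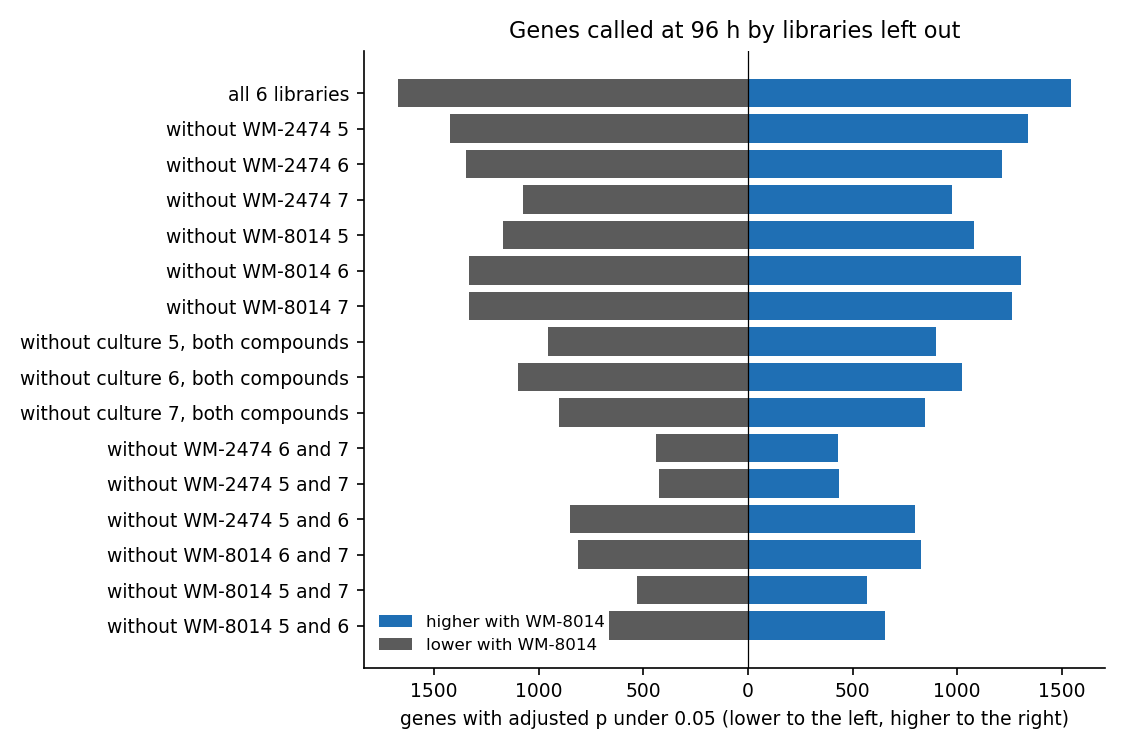
Number of genes with adjusted p under 0.05 at 96 h (horizontal axis, genes lower with WM-8014 to the left of 0 and higher to the right) with all libraries and with the named libraries left out. Without WM-2474 cultures 6 and 7 there were 432 and 437 genes, and without cultures 5 and 7 436 and 426.

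Some genes did rest on those libraries, and not all of the 39 that moved by over 1.5-fold are named here. In Eya2 the WM-2474 cultures 6 and 7 lay above all 10 other libraries. Its level was low, at 1.021, 2.388 and 2.029 CPM with WM-2474 and 0.8151, 1.296 and 0.8117 CPM with WM-8014, and its groups overlapped. The log2 fold change of Eya2 was -0.97 over all libraries (adjusted p = 0.0201) and -0.07 without WM-2474 cultures 6 and 7. Misp3 was at 89.0, 0.724 and 0.943 CPM with WM-2474 and at 203, 172 and 79.9 CPM with WM-8014. Its groups overlapped, since WM-2474 culture 5 lay above WM-8014 culture 7, and it did not pass (adjusted p = 0.117), with log2 fold changes of 2.87 over all libraries, 0.77 without WM-2474 cultures 6 and 7 and 7.40 without WM-2474 culture 5, where it passed (adjusted p = 0.000343, the lowest of a range up to 0.551). Stag3, a meiotic cohesin subunit, was at 22.9, 1.81 and 2.50 against 34.1, 26.5 and 30.7 CPM. Its log2 fold change was 2.29 over all libraries (adjusted p = 0.0436, and 0.0514 with culture number as a block) and 0.41 without cultures 6 and 7 (adjusted p = 0.0998), within a range of 4.65e-11 to 0.388, and leaving out any 1 of the 6 libraries but WM-2474 culture 5 ended the call. Ntn3, a netrin (64.4, 11 and 13 against 132, 117 and 57.1 CPM), overlapped between groups and went from 2.06 to 0.66, and Lrrn2, a leucine-rich repeat membrane protein (26.5, 9.77 and 12.7 against 37.5, 28.2 and 27.6 CPM), from 1.06 to 0.23, and neither passed then (adjusted p = 0.485 and 0.515, the highest of their ranges from 0.00158 and 1.69e-06). Cadps2, a protein of vesicle exocytosis, went from 1.47 to 0.77 and lost its call (adjusted p = 0.0745, the highest of a range from 3.29e-10). Cebpb, a transcription factor of fat cell formation and of inflammatory genes, was at 108, 61.3 and 61.5 against 159, 170 and 141 CPM. It kept its call without cultures 6 and 7 (adjusted p = 0.00358), with a log2 fold change of 0.54 in place of 1.07, and lost it without culture 6 or culture 7 of all groups, within a range of 4.91e-09 to 0.136.

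**Figure D4:**
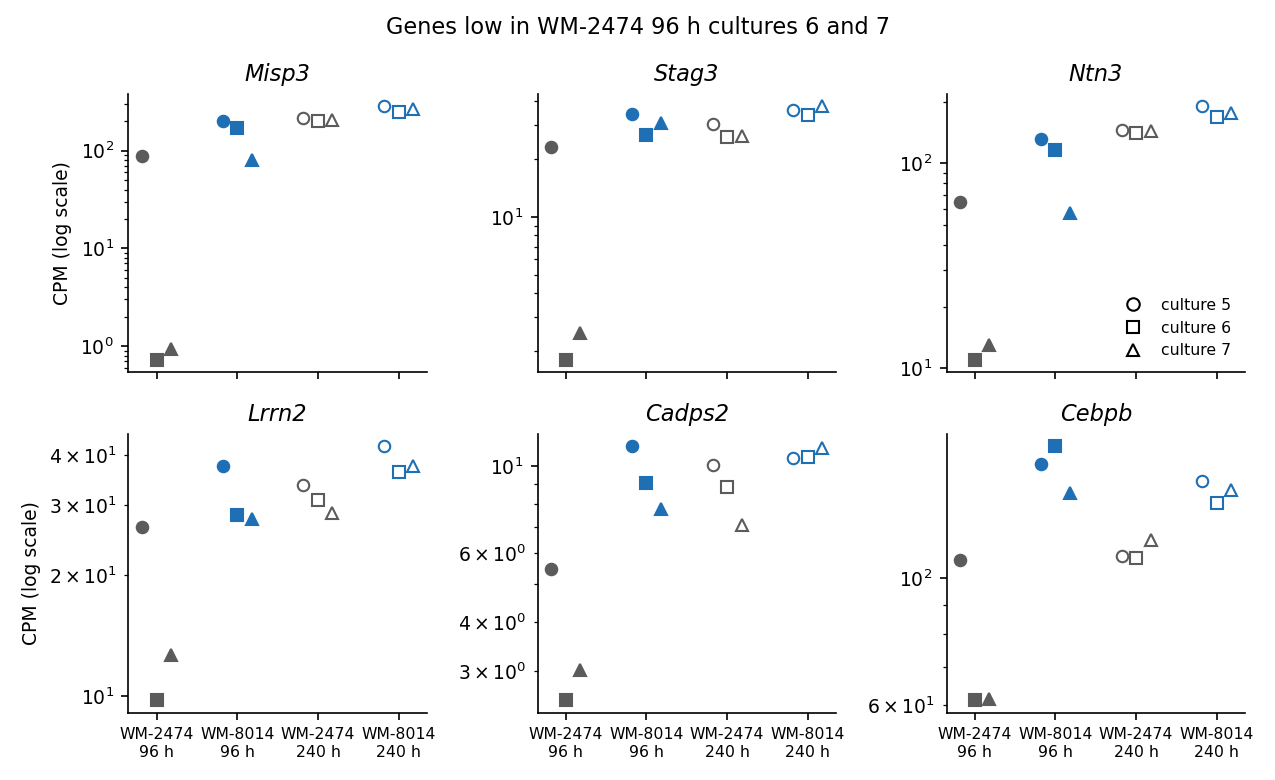
Level in CPM (vertical log axis) of 6 genes in all 12 libraries by group, with culture number by marker. In Misp3, Stag3, Ntn3 and Lrrn2, WM-2474 cultures 6 and 7 at 96 h lie below the 10 other libraries, with Misp3 at 0.724 and 0.943 CPM there against 79.9 CPM or more elsewhere.

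Directions also recurred in a culture that had no part in the call. Genes were called with culture 5, 6 or 7 left out of every group, and the left-out culture was then asked for the sign of its own difference between the compounds. It had the same sign for 1789 of 1848 genes (culture 5), 2052 of 2118 (culture 6) and 1695 of 1749 (culture 7), which are 96.8, 96.9 and 96.9%. Over all genes tested the signs matched in 72.6, 72.5 and 72.4%.

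At 240 h, where 42.6% of genes passed, 2413 of the 3218 genes passed with the same sign, 62 with the opposite sign, and 743 did not pass. The difference between the effects at 240 and 96 h passed its own test for 709 of the 3218 genes, against 1510 of all 14136 genes tested (10.7%). Of the 709, 526 were larger in the same direction at 240 h, 34 smaller and 149 opposite in sign. In the cell division lists the difference passed in 19 of 20 mitotic kinase genes, whose median log2 fold change went from -0.38 to -1.13, and in 13 of 20 licensing genes (-0.29 to -0.81). It passed in 2 of 25 cholesterol genes (-0.25 at 96 h, -0.31 at 240 h) and in 4 of 46 lysosomal genes (0.19 and 0.23). Contractile genes differed in 12 of 23, with medians of -0.13 at 96 h and 0.08 at 240 h. Cpt1a had log2 fold changes of 0.76 and 0.78 at the 2 times and Lss of -0.34 and -0.49. The 96 h and 240 h groups share no library, but they hold the same-numbered cultures and entered the same fit, so they are not independent.

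**Figure D5:**
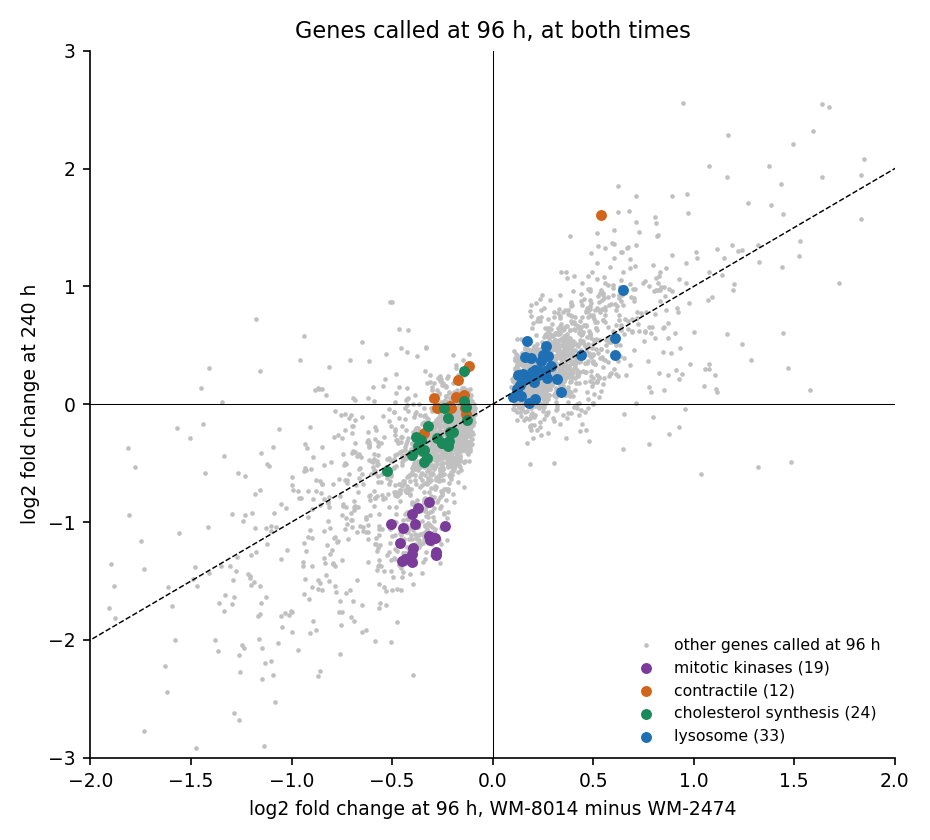
Log2 fold change of WM-8014 minus WM-2474 at 96 h (horizontal axis) and at 240 h (vertical axis) for genes called at 96 h, with mitotic kinase, contractile, cholesterol and lysosome genes in colour, a dashed line for equal values and 27 of 3218 genes outside the axes. Mitotic kinase genes lie below the line, as Plk1 with -0.45 at 96 h and -1.33 at 240 h, while Cpt1a lies near it with 0.76 and 0.78.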

How the data were processed

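Per the labels' protocols, RNA came from RNeasy columns and the stranded poly(A) libraries from the TruSeq Stranded mRNA kit. The deposited table holds raw read counts per gene and library with no normalization, which, per the submitters' processing notes, the authors made with featureCounts on mm10. Which aligner, annotation and strand setting they used is not given in the sources used here, so reads of overlapping or antisense genes may not be separated. A gene length column, which the authors deposited with the counts, served for RPKM.

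Of 27179 identifiers 25275 (93.0%) matched RefSeq symbols of GRCm38.p6, whose coordinates are those of mm10. In edgeR 4.0.16 under R 4.3.3, genes were filtered with filterByExpr, scaled by TMM and fitted with a robust quasi-likelihood model over all 12 libraries and 4 groups, tested two-sided with Benjamini-Hochberg adjustment over 14136 genes. The common biological coefficient of variation was 4.64%. Standard errors and 95% intervals were derived from the F statistic, and log2 CPM of single libraries used a prior count of 2. Total counts of 10147466 to 45903190 set the precision, and a count of 0 allows up to 3 reads. Replicates differed by more than sampling noise, so none was counted as a duplicate. The pipeline was tested on simulated data.

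Samples were grouped by compound and time in the labels. Same-numbered cultures deviated together from their 96 h group means across genes (r = 0.141, 0.150 and 0.158, other pairs -0.104 to -0.0458), so the numbers were read as pairing the cultures. The model has no block for culture, and the fit with one is an alternative. Other alternatives were DESeq2 1.42.0, its size factors, upper-quartile factors, other filters, limma 3.58.1 (voom with sample weights), thinned reads, the 96 h libraries alone, and libraries left out.

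The comparison, the 52 gene lists and the rule for named genes were chosen with earlier results of these data known, and no list is independent evidence. The rule took the 5 MYST enzymes, the 15 highest and 15 lowest fold changes without overlap and with a mean of at least 1 log2 CPM, the 10 smallest p values, the 10 most abundant genes that changed by at least 1.25-fold, up to 5 genes with the smallest p of each list, the 10 genes in which WM-2474 cultures 6 and 7 lay farthest apart from the rest, and the 8 smallest p values of the difference between times. Some items are not reported here. Promoters were searched over the 250 bases before the start, where the RefSeq table has the gene.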

Additional observations from a re-analysis of the deposited data

Results flagged for a closer look

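For 40 genes named above, the effect of WM-8014 against WM-2474 at 240 h differed from that at 96 h by the test of the difference itself (edgeR, adjusted over all genes tested). The value in parentheses is the log2 fold change at 240 h minus that at 96 h, from separate libraries of same-numbered cultures. Over all genes tested the difference passed for 1510 of 14136 (10.7%). The rule for named genes took some by the smallest p values of this same test. It took others by their effect at 96 h, which enters the difference. The count of 40 was therefore set in part by that choice and does not show how common such differences are. Groups of 3 libraries are too small for a test of single outlying samples.

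Genes of the cell division cycle and of chromatin had a lower value at 240 h. They were Plk1 (-0.89), Incenp (-0.63), Aurka (-0.60), Cdca8 (-0.51), Aurkb (-0.94), Cenpf (-0.97), Spc24 (-0.65), Smc4 (-0.60), Ncapd2 (-0.71), Dbf4 (-0.61), Foxm1 (-0.70), Mki67 (-1.13), Uhrf1 (-1.06) and H1f0 (-0.33). Each of these 14 had fallen at 96 h. Adjusted p values ran from 2.06e-07 for Mki67 to 0.00694 for Cdca8. The inhibitor gene Cdkn2a (0.55) moved the other way, from 0.68 at 96 h to 1.24 at 240 h.

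Lipid and lysosome genes were few here: Scd2 (-0.30), Fads3 (0.37) and Ctsd (0.36). Ctsd went from 0.17 to 0.54 and Fads3 from 0.27 to 0.64.

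Genes of matrix and of the cytoskeleton differed both ways. Fbn1 (-0.30), Fbln1 (-0.82) and Plat (-0.45) were lower at 240 h, and Timp2 (0.35), Acta2 (0.24), Cnn2 (0.19) and Tpm1 (0.34) were higher. Fbn1, which had risen by 0.38 at 96 h, stood at 0.08 at 240 h, and Plat went from 0.31 to -0.14. The contractile genes Acta2, Cnn2 and Tpm1 went from -0.28, -0.21 and -0.29 to -0.03, -0.02 and 0.05. Egr1 did the same, from -0.55 to 0.15 (0.70).

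Among signalling and developmental genes the difference was negative for Fzd6 (-0.58), Igfbp5 (-1.19), Dchs1 (-1.03), Crmp1 (-1.33) and Crabp1 (-0.91) and positive for Grem1 (0.46), Hoxc13 (1.68), Sncg (0.44) and Nuak1 (0.24). Nuak1 was the 1 of these 9 genes whose effect was smaller at 240 h, from -0.68 to -0.44. The imprinted genes Slc38a4 (-1.09) and Peg3 (-0.63) were lower still at 240 h, Slc38a4 with an adjusted p of 1.66e-08. The disulfide isomerase gene Pdia6 (-0.23) fell further. Cadps2, in which WM-2474 cultures 6 and 7 at 96 h were low, went from 1.47 to 0.31 (-1.16), and Mcpt8, in which WM-8014 cultures 5 and 6 at 96 h were low, went from -2.05 to -0.14 (1.91).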

How the results depend on the processing

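Counts of genes higher and lower at 96 h (1544 and 1674) stayed within 1.5 times of those values with culture number as a replicate block (1737 and 1853, with 3181 of the 3218 genes still passing), with DESeq2 (1113 and 1345), with thinned reads (1208 and 1360) and under the other scalings, filters and fits tried. With 1 library or 1 culture number left out they were 847 to 1340 higher and 903 to 1422 lower, the lowest without culture 7, which removes the deepest library. The count of genes whose effect differed at 240 h (709) was 894 with the replicate block, 322 to 577 with 1 library or culture number left out, and 147 without WM-2474 cultures 6 and 7. Leaving out 2 WM-2474 libraries gave 432 and 437 genes (cultures 6 and 7), 436 and 426 (5 and 7) and 799 and 850 (5 and 6). Leaving out 2 WM-8014 libraries, chosen after seeing the data, gave 827 and 810 (6 and 7), 656 and 665 (5 and 6) and 571 and 529 (5 and 7). Such fits have fewer samples. In each fit but the 3 chosen after seeing the data 229 genes were called higher and 214 lower. Of 99 genes named above that passed (Eya2 not counted), 93 did so in each fit without 1 library or culture number. Of all 3218 genes that passed, 1077 did so. The rule picked genes by small p values and large changes in these same data, so the higher share came in part from that choice. Without WM-2474 cultures 6 and 7 the sign was the same in 99 of the 99 genes, and in 3213 of all 3218. That fit reuses all the remaining libraries, so the same sign is no independent evidence. The block ended the call of 1 of them, Stag3. Kat7 and Kat8, which did not pass in any fit that turned their sign, changed direction: Kat7 to 0.00217 without culture 5 (-0.0584 to 0.00217 over the fits without 1 library or culture number), 0.00604 without WM-2474 cultures 5 and 7 and 0.00276 without WM-8014 cultures 5 and 7, and Kat8 to 0.0252 with thinned reads, 0.0921 without WM-8014 cultures 5 and 7, 0.331 without WM-2474 cultures 6 and 7, and to 0.00952, 0.0436, 0.106 and 0.160 in 4 of the fits without 1 library or culture number (-0.106 to 0.160 over all 9). The cause was not tested. Depth limits low genes first, since the shallowest library held 10147466 reads.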

Other observations

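The gene groups not described above are given by their counts at 96 h, beside the 22.8% of all genes that passed. Of 40 genes of oxidative phosphorylation 0 rose and 3 fell, and of 20 glycolysis genes 3 rose and 1 fell, or 7.5% and 20% of the lists. Of 49 cytosolic ribosomal protein genes 0 rose and 5 fell (10.2%, median log2 fold change -0.06), and of 31 ribosome biogenesis genes 0 rose and 10 fell (32.3%, median -0.10). Over the fits without 1 library or culture number 0 to 10 of the 31 fell, and 1 fell without WM-2474 cultures 6 and 7. Of 30 p53 targets 1 rose and 5 fell (20%), of 15 NRF2 and AhR targets 4 rose and 0 fell (26.7%), and of 21 ATF4 and serine synthesis genes 5 rose and 1 fell (28.6%), where 9 rose with culture number as a block. Of 18 nucleotide synthesis genes 1 rose and 5 fell (33.3%), and of 25 proteoglycan and matricellular genes 8 rose and 2 fell (40%). Without WM-2474 cultures 6 and 7 none of the 18 passed, and 2 of the 25 rose and 1 fell. Among markers of other cells, neuron and glia genes rose in 1 and fell in 3 of 8 tested (50%), cartilage and bone genes rose in 2 and fell in 1 of 7 (42.9%), and epithelium and mesothelium genes fell in 1 of 6.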
